A study of Mus musculus with 20 samples.

Results

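Serine and proline metabolism, together with a branched-chain amino acid transporter, was followed through 9 genes on expression arrays of adipocytes from Olfm2 knockout and wild-type mice. The genes were picked by symbol with earlier results of these arrays in view, because Phgdh, Prodh and Slc43a1 were higher on knockout arrays. Of the 9 genes 8 had a named probe, out of 19505 genes measured: Phgdh, Psat1, Psph, Shmt2, Asns, Prodh, Aldh4a1 and Slc43a1. Pycr1, which encodes a proline-making reductase, was not analysed here. Since the knockout comparison led to the choice of genes, its values are given as a description and without a test for them. The comparison of the depots did not enter the choice and was tested. It uses the same arrays, however, so for Phgdh, Prodh and Slc43a1 its tests are not independent of the choice.

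Total RNA was hybridised to 20 arrays in 4 groups of 5, namely Olfm2 knockout cells of the depot labelled g, wild-type g cells, Olfm2 knockout cells of the depot labelled sc and wild-type sc cells. The labels call the material adipocytes that came from adipose tissue and were differentiated in culture. They state neither the strain, age and sex of the mice nor the kind of Olfm2 allele, and they do not say whether the cultures were separate, so the tests cover only the variation among these arrays, which may be technical. Olfm2 encodes the secreted glycoprotein olfactomedin 2, and the study's title links a lower level in adipocytes to obesity. Values are log2 array signals, so a difference of 1 stands for a doubled signal, and signals of different probes are not set against each other.

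Cells make serine from an intermediate of glycolysis in a chain of enzymes that begins with Phgdh and continues with Psat1 and Psph. Shmt2 then turns serine into glycine inside mitochondria and passes a carbon unit to folate. Proline is burnt in mitochondria by Prodh and Aldh4a1, which return it to glutamate, while Asns makes asparagine from aspartate. Several of these genes are known targets of ATF4, the transcription factor of the amino acid response. Adipocytes are known to take up and break down amino acids as they mature, and liver is rich in enzymes of amino acid breakdown.

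Markers of other cell types had high signals on some arrays, although the labels call the material adipocytes differentiated in culture. Where these signals came from was not tested. The mean of 15 measured hepatocyte markers, such as albumin, ranged from 5.58 to 10.55 in knockout g, 5.13 to 9.01 in wild-type g, 5.31 to 9.97 in knockout sc and 4.97 to 5.67 in wild-type sc arrays. It was above 7 on 8 arrays and at most 6.08 on the other 12. The mean of 11 lymphocyte markers was above 7 on sc317KO, sc320KO and sc286WT, and at most 6.95 elsewhere. That of 15 skeletal muscle markers was 10.69 on sc286WT, 8.72 on sc307WT, 7.66 on sc317KO and 7.01 on sc320KO, and at most 5.63 elsewhere. The mean of 16 macrophage markers lay between 8.51 and 9.43 in knockout g arrays, against 9.72 to 10.29 in wild-type g arrays. In the sc depot it was 7.87 to 8.39 in knockout and 8.28 to 8.63 in wild-type arrays. The mean of 18 mature adipocyte markers was 10.90 to 11.10 in knockout g, against 10.37 to 10.76 in wild-type g arrays, and 11.21 to 11.35 in knockout sc, against 10.94 to 11.29 in wild-type sc arrays. In mixed material fewer cells of a type and less RNA per cell cannot be told apart. Olfm2 itself was at 3.36 to 3.72 in knockout g, against 4.08 to 4.6 in wild-type g arrays, and at 2.67 to 3.58 in knockout sc, against 4.28 to 5.25 in wild-type sc arrays. The negative control probes had array medians of 4.45 to 4.84 and 95th percentiles of 7.02 to 7.48. Phgdh, Psat1 and Asns were above that 95th percentile on 20 of 20 arrays and Psph on 15, Prodh and Slc43a1 on 9 each, and Shmt2 and Aldh4a1 on 0, so the signals of Shmt2 and Aldh4a1 are the least distinct from background. For Prodh and for Slc43a1 the 9 arrays were all knockout arrays, and 0 of 10 wild-type arrays were above it, so no fold is given for them.

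Phgdh, the enzyme that opens serine synthesis, had higher signals on knockout arrays of both depots. On the knockout g arrays it read 9.67 (g320 KO), 9.75 (g300 KO), 9.71 (g306 KO), 9.74 (g317 KO) and 9.45 (g318 KO). On the wild-type g arrays it read 8.78 (g286 WT), 8.91 (g287 WT), 8.06 (g307 WT), 8.59 (g308 WT) and 8.31 (g309 WT). The lowest knockout g array thus lay above the highest wild-type g array, and the knockout arrays were more alike. On the knockout sc arrays Phgdh read 9.28 (sc300KO), 9.47 (sc306KO), 9.08 (sc317KO), 9.41 (sc318KO) and 9.28 (sc320KO). On the wild-type sc arrays it read 8.32 (sc286WT), 8.66 (sc287WT), 8.85 (sc307WT), 8.79 (sc308WT) and 8.82 (sc309WT), again without overlap. The means were 9.66 ± 0.13 in knockout g against 8.53 ± 0.35 in wild-type g, and 9.30 ± 0.15 in knockout sc against 8.69 ± 0.22 in wild-type sc (SD, n = 5 each). The difference was 1.13 (SE 0.14) in g, a 2.19-fold signal, and 0.62 (SE 0.14) or 1.53-fold in sc. From high to low the groups stood as knockout g, knockout sc, wild-type sc and wild-type g, and both knockout groups lay apart from both wild-type groups.

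Psat1, the aminotransferase that follows Phgdh, had a smaller knockout difference. It read 9.58 (g320 KO), 9.96 (g300 KO), 9.83 (g306 KO), 9.72 (g317 KO) and 9.63 (g318 KO) in knockout g. On g286 WT, g287 WT, g307 WT, g308 WT and g309 WT it read 9.46, 9.54, 9.02, 9.42 and 9.20, so the g groups did not overlap, by a margin of hundredths. The sc groups did overlap, at 9.18, 9.59, 9.03, 9.46 and 8.97 on sc300KO, sc306KO, sc317KO, sc318KO and sc320KO and 8.77, 9.14, 9.13, 9.24 and 9.26 on sc286WT, sc287WT, sc307WT, sc308WT and sc309WT. The knockout difference was 0.41 (SE 0.13) in g and 0.14 (SE 0.13) in sc. In order of level knockout g (9.74 ± 0.15) stood first, above wild-type g (9.33 ± 0.22), knockout sc (9.25 ± 0.27) and wild-type sc (9.11 ± 0.20), and the last 3 overlapped one another (SD, n = 5 each).

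Psph, the phosphatase that releases serine, did not follow Phgdh. Its group means were 7.36 ± 0.17 in knockout g against 7.25 ± 0.18 in wild-type g, and 7.51 ± 0.29 in knockout sc against 7.52 ± 0.09 in wild-type sc, and its differences were 0.11 and -0.01 (SE 0.12 each). Shmt2 had 6.48 ± 0.28 in knockout g against 6.24 ± 0.16 in wild-type g, and 6.32 ± 0.33 in knockout sc against 6.26 ± 0.15 in wild-type sc, differences of 0.25 and 0.05 (SE 0.15 each). For both genes knockout and wild-type arrays overlapped in each depot. The highest Shmt2 value, 6.88 on g317 KO, and the lowest, 5.85 on sc320KO, were both on knockout arrays.

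Asns, asparagine synthetase, read 9.03 (g320 KO), 8.60 (g300 KO), 8.40 (g306 KO), 8.94 (g317 KO) and 8.37 (g318 KO) in knockout g. The values on g286 WT, g287 WT, g307 WT, g308 WT and g309 WT were 8.09, 8.18, 8.34, 8.34 and 8.36, so the lowest knockout g array stood just above the highest wild-type one. In sc the values were 8.93, 8.83, 9.07, 8.85 and 8.89 on sc300KO, sc306KO, sc317KO, sc318KO and sc320KO, against 8.34, 8.70, 8.72, 8.82 and 8.84 on sc286WT, sc287WT, sc307WT, sc308WT and sc309WT. The sc groups touched, since sc309WT reached the lowest knockout value. The difference was 0.41 (SE 0.12) in g and 0.23 (SE 0.12) in sc. By level the order was knockout sc (8.91 ± 0.09), wild-type sc (8.68 ± 0.20), knockout g (8.67 ± 0.31) and wild-type g (8.26 ± 0.12), with the middle pair indistinguishable (SD, n = 5 each).

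Prodh, the mitochondrial proline dehydrogenase that starts proline breakdown, was higher on every knockout array than on the wild-type arrays of the same depot. It read 7.57 (g320 KO), 7.17 (g300 KO), 7.17 (g306 KO), 8.0 (g317 KO) and 7.34 (g318 KO) in knockout g. In wild-type g it read 6.80 (g286 WT), 6.83 (g287 WT), 6.30 (g307 WT), 7.04 (g308 WT) and 6.58 (g309 WT). The lowest knockout g arrays, g300 KO and g306 KO, stood little above g308 WT. Knockout sc arrays read 8.16 (sc300KO), 7.46 (sc306KO), 8.0 (sc317KO), 7.63 (sc318KO) and 7.76 (sc320KO). Wild-type sc arrays read 6.57 (sc286WT), 6.80 (sc287WT), 6.71 (sc307WT), 6.96 (sc308WT) and 6.81 (sc309WT), a clearer gap than in g. The means were 7.45 ± 0.35 in knockout g against 6.71 ± 0.28 in wild-type g, and 7.80 ± 0.28 in knockout sc against 6.77 ± 0.14 in wild-type sc (SD, n = 5 each). The difference was 0.74 (SE 0.16) in g and 1.03 (SE 0.16) in sc, against wild-type signals below the control percentile. The order was knockout sc, knockout g, wild-type sc and wild-type g, and the wild-type depots overlapped.

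Aldh4a1, which oxidises the product of Prodh to glutamate, went the same way by less. It ranged from 6.30 to 7.04 in knockout g, against 5.53 to 6.36 in wild-type g, and from 6.54 to 7.16 in knockout sc, against 6.21 to 6.81 in wild-type sc. Knockout and wild-type arrays overlapped in both depots, and the differences were 0.57 in g and 0.33 in sc (SE 0.17 each). The order of the means was knockout sc (6.79 ± 0.22), knockout g (6.69 ± 0.32), wild-type sc (6.46 ± 0.25) and wild-type g (6.12 ± 0.34), and no neighbours in this order differed beyond their spread.

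Slc43a1 encodes LAT3, a carrier of leucine and other large neutral amino acids. It read 7.92 (g320 KO), 7.56 (g300 KO), 7.42 (g306 KO), 8.22 (g317 KO) and 7.70 (g318 KO) in knockout g. In wild-type g it read 7.14 (g286 WT), 7.17 (g287 WT), 7.09 (g307 WT), 7.10 (g308 WT) and 7.27 (g309 WT), the tightest group for this gene. Knockout sc arrays read 7.46 (sc300KO), 7.05 (sc306KO), 7.90 (sc317KO), 7.38 (sc318KO) and 7.86 (sc320KO). Wild-type sc arrays read 6.77 (sc286WT), 6.39 (sc287WT), 6.58 (sc307WT), 6.19 (sc308WT) and 6.69 (sc309WT). Knockout and wild-type arrays did not overlap in either depot, and wild-type sc lay below all other groups. The means were 7.77 ± 0.31 in knockout g against 7.15 ± 0.07 in wild-type g, and 7.53 ± 0.35 in knockout sc against 6.52 ± 0.24 in wild-type sc (SD, n = 5 each). The difference was 0.61 (SE 0.16) in g and 1.0 (SE 0.16) in sc, again against wild-type signals below the control percentile. In the order of levels the 2 knockout groups came first and overlapped, followed by wild-type g, whose arrays lay between the lowest knockout sc array, sc306KO, and the other knockout sc arrays.

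**Figure D1:**
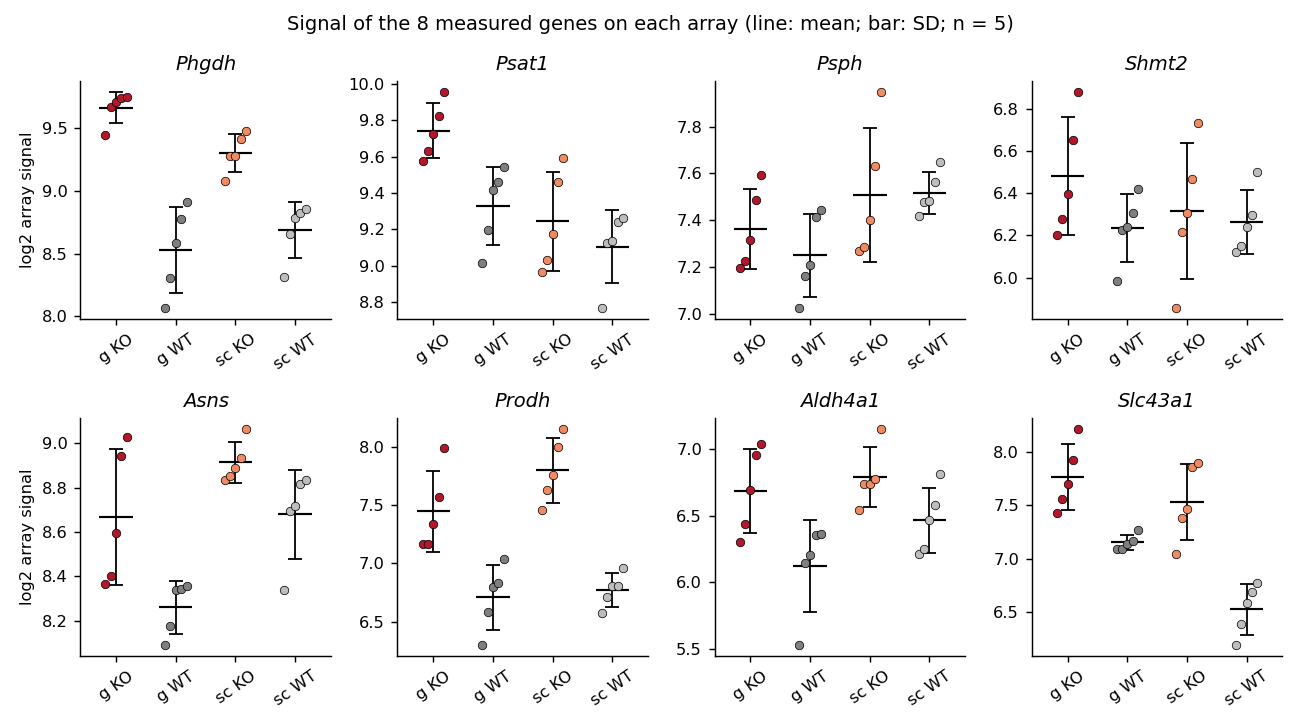
Log2 array signal (y axis, a scale of its own for each gene) of the 8 measured genes in knockout and wild-type adipocytes of the depots g and sc (x axis). Points are arrays, lines are means and bars are SD over 5 arrays. Knockout and wild-type points of Phgdh, Prodh and Slc43a1 are separate in both depots.

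Across the 8 genes, knockout arrays lay above wild-type arrays without overlap for 5 in g (Phgdh, Psat1, Asns, Prodh and Slc43a1), where 4.68% of all 19505 genes did so. In sc this held for 3 (Phgdh, Prodh and Slc43a1), where 1.41% of all genes did. Nothing is read from these shares, since the genes were chosen on this comparison. The median difference of the 8 genes was 0.49 in g and 0.28 in sc, and that of the 5 genes other than Phgdh, Prodh and Slc43a1 was 0.41 in g and 0.14 in sc. The median over all genes was 0.02 in g and 0.01 in sc.

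**Figure D2:**
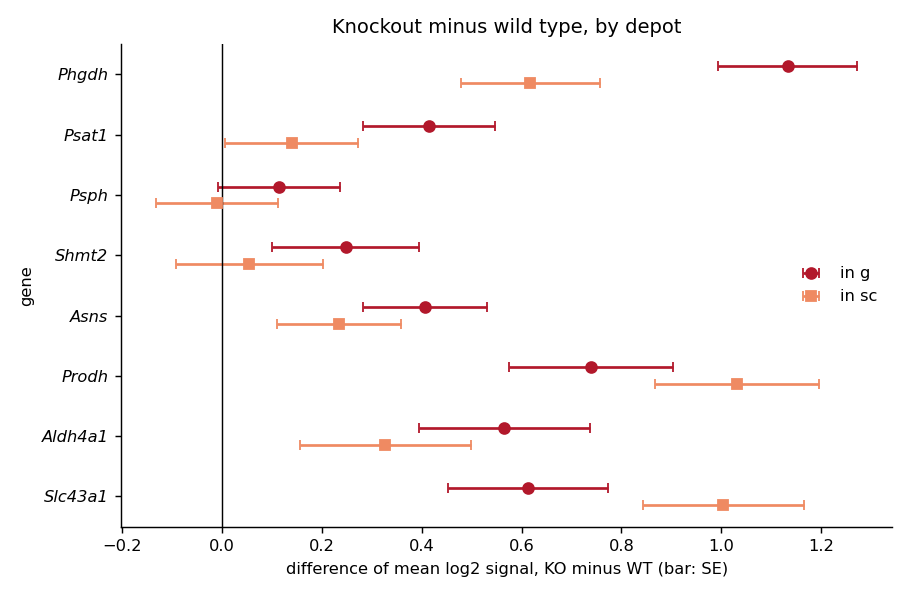
Difference of mean log2 signal, knockout minus wild type (x axis), for each gene (y axis) in g (circles) and sc (squares); bars are the SE of the limma fit. All 8 genes lie above 0 in g, from 0.11 for Psph to 1.13 for Phgdh, and 7 of 8 in sc, where Psph is at -0.01.

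The promoters of 4 of these genes are shown for the motifs they hold: those of Phgdh, Prodh and Slc43a1, which led to the choice, and that of Asns, whose amino acid response element is well known. They are RefSeq windows of assembly GRCm38.p6, 300 bases long, from 250 bases before to 50 after the annotated start, and all 9 genes matched the table by symbol. Both strands were searched for TGATGNAA (the composite C/EBP-ATF element that ATF4 binds), TGACNNNGC (core of the antioxidant response element), CACGTG (E-box) and a repeat of AGGTCA with 1 base between the copies (PPAR element). No 2 of these motifs overlapped in the windows shown. Capitals mark each match.
Phgdh, chr3:98339920-98340219, minus strand: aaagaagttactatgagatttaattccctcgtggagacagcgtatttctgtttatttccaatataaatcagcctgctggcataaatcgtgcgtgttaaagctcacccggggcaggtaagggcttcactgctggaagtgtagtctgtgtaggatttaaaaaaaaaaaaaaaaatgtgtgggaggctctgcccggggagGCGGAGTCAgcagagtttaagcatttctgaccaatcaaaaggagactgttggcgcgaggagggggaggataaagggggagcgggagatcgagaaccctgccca
Prodh, chr16:18089141-18089440, minus strand: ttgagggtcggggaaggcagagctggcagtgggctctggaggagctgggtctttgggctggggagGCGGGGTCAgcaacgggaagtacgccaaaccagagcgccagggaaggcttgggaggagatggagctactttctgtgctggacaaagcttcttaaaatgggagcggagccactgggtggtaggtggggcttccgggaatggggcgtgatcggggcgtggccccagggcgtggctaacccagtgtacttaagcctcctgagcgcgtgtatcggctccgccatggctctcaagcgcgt
Slc43a1, chr2:84840073-84840372, plus strand: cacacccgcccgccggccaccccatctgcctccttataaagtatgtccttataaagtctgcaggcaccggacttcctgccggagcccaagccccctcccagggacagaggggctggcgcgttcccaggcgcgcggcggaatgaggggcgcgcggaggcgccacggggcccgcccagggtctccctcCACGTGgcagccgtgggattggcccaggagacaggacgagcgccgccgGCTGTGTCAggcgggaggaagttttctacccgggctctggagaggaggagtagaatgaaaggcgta
Asns, chr6:7693160-7693459, minus strand: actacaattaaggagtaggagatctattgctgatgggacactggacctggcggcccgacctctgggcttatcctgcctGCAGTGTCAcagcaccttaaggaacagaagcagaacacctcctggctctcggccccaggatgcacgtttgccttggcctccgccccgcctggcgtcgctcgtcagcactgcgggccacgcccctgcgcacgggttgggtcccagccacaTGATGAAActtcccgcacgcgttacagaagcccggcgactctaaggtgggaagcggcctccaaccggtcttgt

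Asns held the C/EBP-ATF letters once, as TGATGAAA beginning 23 bases before the start, and 3.97% of all 32851 promoter windows held a match. The windows of Phgdh, Prodh and Slc43a1 had 0 matches to it. Each of the 4 windows had 1 match to the antioxidant core, on the minus strand of the window, and 12.4% of all windows had one. Of the 9 genes 5 held it, Psph being the other, and Psat1, Shmt2, Aldh4a1 and Pycr1 did not. The C/EBP-ATF letters were also in the Pycr1 window, as TGATGCAA beginning 103 bases before the start. Slc43a1 also had 1 E-box, beginning 64 bases before the start, against 7.15% of all windows. The PPAR letters occurred in 0 of the windows of the 9 genes and in 0.0396% of all windows. These matches are letters in a window and show no binding.

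The depot comparison asked whether g and sc adipocytes differ in these genes. Slc43a1 was higher in wild-type g than in wild-type sc adipocytes, by 0.63 (SE 0.16, limma adjusted p = 0.00899), and each of the 5 g arrays was above each of the 5 sc arrays. All 10 of these signals were below the 95th percentile of the negative controls, which limits what this difference can show. Slc43a1 was also chosen for wild-type signals below knockout ones, and these same wild-type arrays enter here, so its test is not independent of the choice. Asns went the other way in wild type, with a difference of -0.42 for g minus sc (SE 0.12, limma adjusted p = 0.0228), and all 5 g arrays were below the sc arrays other than sc286WT, whose 8.34 lay among the g values. In knockout adipocytes Psat1 was higher in g than in sc, by 0.50 (SE 0.13, limma adjusted p = 0.0376), with 9.74 ± 0.15 in g against 9.25 ± 0.27 in sc (SD, n = 5 each) and 1 sc array, sc306KO, inside the g range. These calls were 2 of 8 genes in wild type, where 17.8% of all genes were called (9.3% higher and 8.48% lower in g), and 1 of 8 in knockout, where 4.13% were called (2.87% higher and 1.27% lower). In wild type 8.73% of all genes had every g array above every sc array, as Slc43a1 did.

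The other depot differences did not pass. In wild type the 95% interval of g minus sc was -0.45 to 0.13 for Phgdh, -0.06 to 0.50 for Psat1, -0.41 to 0.28 for Prodh and -0.70 to 0.01 for Aldh4a1. In knockout it was 0.07 to 0.65 for Phgdh (adjusted p = 0.177 in limma), -0.70 to -0.01 for Prodh (adjusted p = 0.271 in limma), -0.51 to 0.01 for Asns and -0.10 to 0.57 for Slc43a1. Prodh and Phgdh thus pointed opposite ways between the knockout depots, without a call for either. Psph and Shmt2 had intervals between -0.52 and 0.48 over both genotypes.

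The call for Slc43a1 in wild type held without each of the 10 arrays in turn. That for Asns ended without sc308WT, sc309WT or g286 WT, with differences of -0.39, -0.38 and -0.38 (limma adjusted p from 0.0577 to 0.0617). That for Psat1 in knockout ended without 7 of the 10 arrays, all but sc306KO, sc318KO and g320 KO (differences from 0.43 to 0.52, limma adjusted p from 0.0554 to 0.115), and without the 3 lymphocyte-high arrays (0.33, adjusted p = 0.184), an alternative chosen after seeing the data. It also ended with the hepatocyte covariate (0.49, adjusted p = 0.0778) and without hepatocyte-high arrays (0.76, adjusted p = 0.345), where the Asns call in wild type ended as well (-0.39, adjusted p = 0.059). Macrophage markers were also higher in g than in sc, with 15 of 16 called in wild type and 13 of 16 in knockout. With the macrophage mean as a covariate the Asns difference was 0.01 (adjusted p = 0.992) and the Slc43a1 difference 0.93 (adjusted p = 0.338) in wild type. The macrophage means of g and sc arrays did not overlap in either genotype, so that this covariate and the depot cannot be told apart. With 3 tissue means (hepatocyte, lymphocyte, muscle) as covariates the wild-type differences of Asns and Slc43a1 were -0.57 (adjusted p = 0.0577) and 0.53 (adjusted p = 0.0948).

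**Figure D3:**
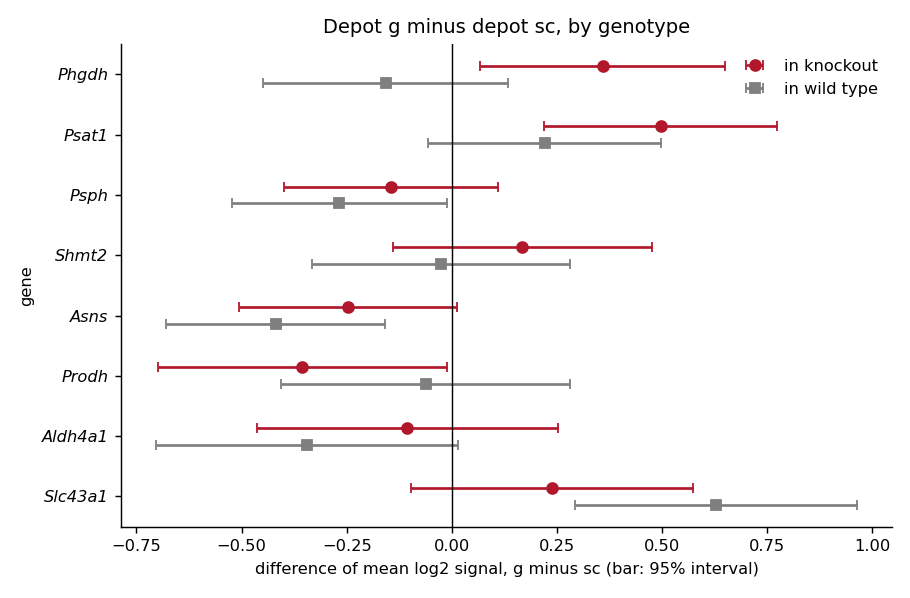
Difference of mean log2 signal, depot g minus depot sc (x axis), for each gene (y axis) in knockout (circles) and wild-type (squares) adipocytes; bars are 95% intervals of the limma fit. Slc43a1 lies at 0.63 and Asns at -0.42 in wild type, and Psat1 at 0.50 in knockout.

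Whether the knockout difference depends on the depot was tested for the 5 genes other than Phgdh, Prodh and Slc43a1. The difference of differences, g minus sc, was called for 0 of them by limma (15 of all 19505 genes, 0.0769%), and 0 had an unadjusted p under 0.05. It was 0.28 for Psat1 (95% interval -0.12 to 0.67), 0.12 for Psph (-0.24 to 0.48), 0.19 for Shmt2 (-0.24 to 0.63), 0.17 for Asns (-0.19 to 0.54) and 0.24 for Aldh4a1 (-0.27 to 0.75). As a description, it was 0.52 for Phgdh (0.10 to 0.93), -0.29 for Prodh (-0.78 to 0.19) and -0.39 for Slc43a1 (-0.87 to 0.08). The intervals leave room for knockout differences that vary between depots by a large part of their size.

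Markers of other cells and of cell state moved with the knockout, and these genes are read beside them. In g the hepatocyte markers had a median knockout difference of 2.02 with 15 of 15 above 0, and in sc 1.68 with 15 of 15 above 0, none of them called. Of the macrophage markers 15 of 16 fell in knockout g and 1 rose (list median -1.05). Also lower there were 9 of 9 mast cell markers (-1.70) and 16 of 19 mitosis genes (-1.08). Of the mature adipocyte markers 11 of 18 rose in knockout g (list median 0.46), the same direction as Phgdh and Psat1, which tracked their mean within groups. In sc 1 macrophage marker fell, and 1 of 16 lay above 0 (list median -0.49). Of the mast cell, mitosis and mature adipocyte genes 0 were called in sc (list medians -0.26, -0.36 and 0.10). The part of these shifts in the knockout differences was not tested. Phgdh was at 9.75 on g300 KO, the single knockout g array without raised hepatocyte markers. It was at 9.74 on g317 KO, whose hepatocyte mean of 10.55 was the highest of all arrays. Prodh was at 7.17 on g300 KO, above all wild-type g arrays but below the control 95th percentile of g300 KO, 7.24. Slc43a1 was at 7.56 on g300 KO, also above all wild-type g arrays. The lack of overlap in g already fixed this order. On the 3 knockout sc arrays with low hepatocyte markers Phgdh averaged 9.28, Prodh 7.74 and Slc43a1 7.60, against 8.69, 6.77 and 6.52 on the 5 wild-type sc arrays, all of which were low. Of those 3 knockout arrays sc317KO and sc320KO were lymphocyte-high, and sc306KO, low in both, had Phgdh at 9.47, Prodh at 7.46 and Slc43a1 at 7.05. That Slc43a1 value was below the control 95th percentile of sc306KO, 7.08. The knockout differences in sc without hepatocyte-high arrays were 0.59, 0.97 and 1.08 for Phgdh, Prodh and Slc43a1. In g, where 1 knockout array and 3 wild-type arrays remained, they were 1.32, 0.60 and 0.39. The Psat1 difference in g was then 0.70 and that of Shmt2 0.50.

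With the macrophage mean as a covariate the knockout difference in g was 0.85 for Phgdh, 0.42 for Slc43a1, 0.19 for Prodh and 0.12 for Asns. The macrophage means of knockout and wild-type g arrays did not overlap, so that this covariate and the knockout cannot be told apart there. In sc the same covariate left 0.50 for Phgdh, 0.81 for Prodh and 0.93 for Slc43a1. Without the lymphocyte-high arrays the sc differences were 0.61, 0.93 and 0.83 for Phgdh, Prodh and Slc43a1.

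**Figure D4:**
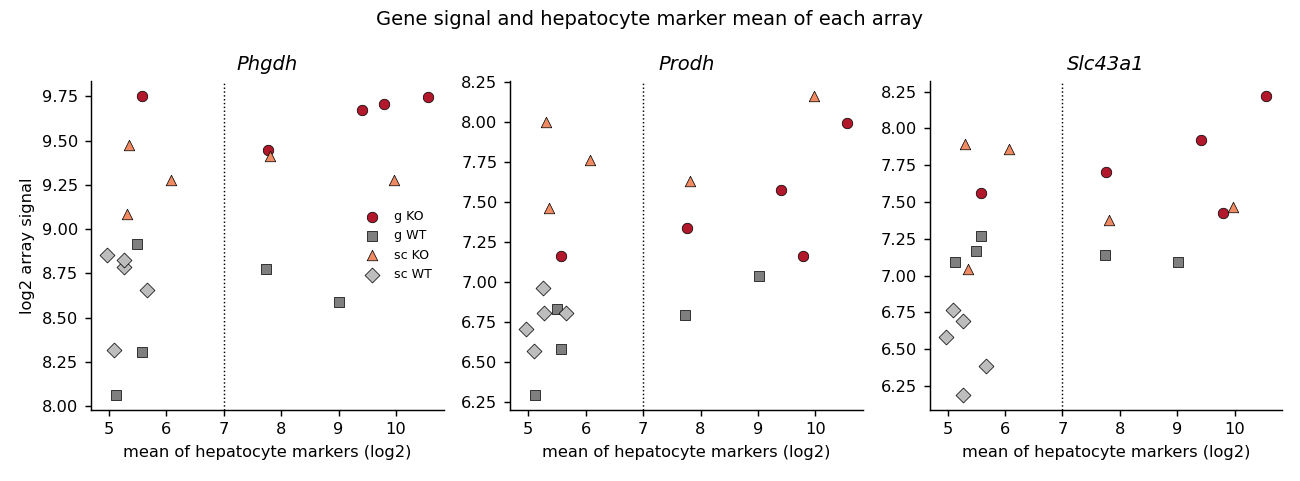
Log2 signal of Phgdh, Prodh and Slc43a1 (y axes) against the mean log2 signal of 15 hepatocyte markers (x axis) on each of the 20 arrays; marker shape and colour give the group, and the dotted line marks 7. Left of the line the knockout arrays lie above the wild-type arrays of their depot for each of the 3 genes. This follows from the lack of overlap over all arrays and is no further test. In g 1 knockout array lies left of the line.

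The genes did not vary as one block. After subtraction of the group means, Phgdh and Psat1 correlated with r = 0.82 over the 20 arrays, and Prodh and Aldh4a1 with 0.56. Prodh and Slc43a1 had 0.45, and Psat1 and Slc43a1 had -0.63. Phgdh tracked the mature adipocyte mean within groups (r = 0.89), as did Psat1 (0.74), whereas Prodh had 0.33 and Slc43a1 -0.31. Prodh tracked the hepatocyte mean (0.63), as did Aldh4a1 (0.56). It tracked the mean of 12 mammary epithelium markers more closely (0.79), as did Asns (0.65), though that mean was only 4.68 to 5.34 on the arrays. Prodh also ran against the mean of 19 mitosis genes (-0.76), as did Asns (-0.78). Slc43a1 correlated with the lymphocyte mean (0.61), where Psat1 had -0.72. These are descriptions over arrays that share groups and processing.

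The genes most like the 3 leading ones over all 20 arrays, group differences included, were sought among all genes. Phgdh was most like Cdo1 (r = 0.93), Myo1c (0.92), Rbp4 (0.92), Vegfb (0.92) and Timp4 (0.91). Within groups Myo1c was closest of these (0.79) and Timp4 least close (0.51). Prodh was most like Nfia (0.93), Bcat2 (0.92), Hsd17b10 (0.92), Sfxn1 (0.91) and Fdx1 (0.91), with within-group values from 0.73 for Bcat2 to 0.88 for Nfia. Slc43a1 had weaker likenesses, to Tmem159 (0.88), Thbd (0.88), C2 (0.87), Phyhd1 (0.86) and Thrsp (0.85), with within-group values from 0.52 for Tmem159 to 0.87 for Phyhd1. No gene was among the 5 of more than 1 of them.

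The neighbouring pathways were read from 4 lists that leave out the 8 genes and were written with earlier results of these arrays known. Of 23 genes of serine breakdown, glycine and one-carbon metabolism, 2 rose and 2 fell in knockout g adipocytes and 0 were called in sc by limma. The share of all genes called was 11.3% in g (5.01% higher, 6.27% lower) and 0.677% in sc (0.297% higher, 0.379% lower), where 2017 genes had an unadjusted p under 0.05. Cbs, which joins serine to homocysteine, rose by 1.14 (SE 0.24, limma adjusted p = 0.00394), with 6.47 in knockout against 5.33 in wild-type g arrays. Its wild-type g signals, at most 5.89, were below the 95th percentile of the negative controls, and the g groups overlapped. Sardh, a sarcosine dehydrogenase whose wild-type g signals of at most 7.01 were also below that percentile, rose by 0.75 (adjusted p = 0.0313). That call ended without any of g306 KO, g317 KO, g320 KO, g307 WT or g309 WT (adjusted p from 0.0543 to 0.101) and with the hepatocyte covariate. Tyms, the folate-dependent thymidylate synthase, fell by 0.56 (adjusted p = 0.000849), and Sptlc2, which condenses serine with palmitoyl-CoA to start sphingolipids, fell by 0.31 (adjusted p = 0.00794). The list median was 0.12 in g and 0.06 in sc.

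Of 22 genes of proline, ornithine and glutamate metabolism, 3 rose and 1 fell in knockout g, and 0 were called in sc. The alanine aminotransferases Gpt2 (1.11, SE 0.17, adjusted p = 0.000357) and Gpt (0.72, adjusted p = 0.00548) rose, as did Rida (0.79, adjusted p = 0.0137), an imine deaminase abundant in liver. The Rida call ended with the hepatocyte covariate. Pepd, which frees proline from dipeptides, fell by 0.43 (SE 0.08, adjusted p = 0.00224). In sc Gpt2 had 0.53 (adjusted p = 0.189) and Gpt -0.02. The list median was 0.14 in g and 0.11 in sc.

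Of 38 genes from families of amino acid transporters, not all of which need carry amino acids, 7 rose and 3 fell in knockout g, and 2 rose in knockout sc. Sfxn1, the mitochondrial serine carrier, rose in both depots, by 0.71 in g (SE 0.16, adjusted p = 0.00644) and 0.78 in sc (SE 0.16, adjusted p = 0.0246). Its means were 9.69 in knockout g against 8.98 in wild-type g and 9.68 in knockout sc against 8.90 in wild-type sc, without overlap in either. The glutamate carrier Slc1a3 rose by 1.13 in g (SE 0.16, limma adjusted p = 0.000253) and 0.83 in sc (SE 0.16, limma adjusted p = 0.019). Its wild-type signals, at most 6.51 in g and 6.86 in sc, were below the control 95th percentile. Slc1a5, the ASCT2 carrier of glutamine and serine, rose by 0.62 in g (SE 0.10, limma adjusted p = 0.000621). The sc calls of Sfxn1 and Slc1a3 each ended without sc287WT, sc300KO, sc308WT, sc317KO or sc320KO (limma adjusted p from 0.0584 to 0.077 and from 0.0538 to 0.065). These sc calls also ended with the 3 tissue covariates and without the lymphocyte-high arrays. In g the Sfxn1 call ended with the hepatocyte covariate. Slc43a2, the LAT4 relative of Slc43a1, fell in g by 0.62 (SE 0.13, adjusted p = 0.00296), with 7.88 in knockout against 8.50 in wild-type g arrays and 0.09 in sc (adjusted p = 0.872). Slc7a7, a cationic and neutral amino acid exchanger subunit, fell in g by 0.79 (adjusted p = 0.00216). With the macrophage covariate, the g differences of Slc43a2 and Slc7a7 were -0.13 and -0.32. The list median was -0.08 in g and 0.06 in sc.

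Of 31 genes of the ATF4 response, tRNA synthetases included, 2 rose and 1 fell in knockout g, and 1 rose in knockout sc, and the list medians were -0.0046 in g and -0.03 in sc. Those that rose were Stc2, a secreted glycoprotein (1.21 in g, SE 0.16, adjusted p = 0.000142, and 0.85 in sc, SE 0.16, adjusted p = 0.0153), and Eif4ebp1, the brake on translation initiation (1.06 in g, SE 0.12, adjusted p = 4.45e-05). The stress factor Atf3 fell in g by 1.23 (SE 0.27, adjusted p = 0.00477), with 7.99 in knockout against 9.22 in wild-type g arrays. With the macrophage covariate the Atf3 difference was -0.07. The Stc2 call in sc ended without sc300KO (limma adjusted p = 0.0553). Wild-type Stc2 signals, at most 6.46 in g and 6.99 in sc, were below the control 95th percentile.

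Some of these pathway differences moved with the markers of other cells. In g the macrophage covariate left 1 gene of all called and the fit without hepatocyte-high arrays left 43, with 1 knockout g array, so that the loss of a call there says little of a single gene. The differences themselves ranged over all 23 alternatives from 1.02 to 1.13 for Eif4ebp1, 0.91 to 1.19 for Slc1a3, 0.64 to 0.83 for Gpt and -0.36 to -0.27 for Sptlc2. They ranged more widely for Atf3 (-1.43 to -0.07), Slc43a2 (-0.72 to -0.13), Sfxn1 (0.20 to 0.80), Gpt2 (0.46 to 1.21), Cbs (0.55 to 1.29) and Rida (0.12 to 0.99), and for each of these 6 the value nearest 0 came with the macrophage covariate. The 3 calls in sc ended with the hepatocyte covariate, at 0.73 for Slc1a3, 0.67 for Sfxn1 and 0.76 for Stc2, and with the macrophage covariate, at 0.74, 0.58 and 0.67. In a fit of the sc arrays alone the calls of Stc2 (adjusted p = 0.0892) and Slc1a3 (adjusted p = 0.0571) ended as well. The part of other cells in the pathway differences was not tested.

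**Figure D5:**
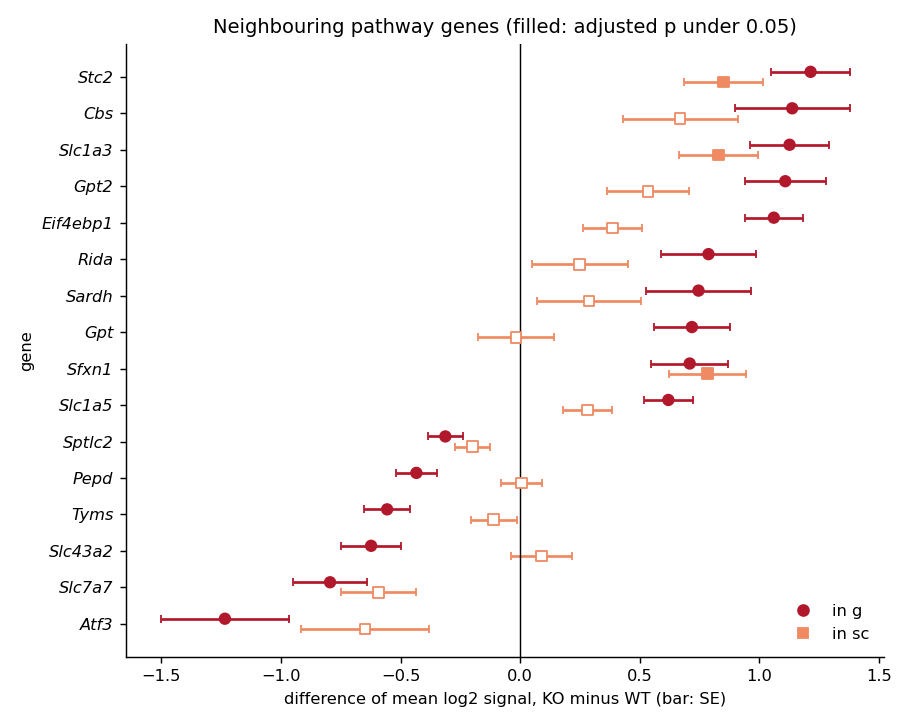
Difference of mean log2 signal, knockout minus wild type (x axis), of the 16 named genes from the 4 neighbouring pathway lists (y axis) in g (circles) and sc (squares); bars are SE and filled symbols passed an adjusted p of 0.05. All 16 are called in g, 10 above and 6 below 0, and Stc2, Slc1a3 and Sfxn1 are also called in sc.

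Between depots genes of all 4 lists differed. In wild type 4 of 22 proline list genes were higher in g and 3 lower, 7 of 38 transporters were higher and 4 lower, 2 of 31 ATF4 genes were higher and 7 lower, and 1 of 23 one-carbon genes was higher and 2 lower, where 17.8% of all genes were called. Slc43a2 was 1.16 higher in wild-type g than in wild-type sc (SE 0.13, adjusted p = 3.78e-06) and Slc43a3, the third member of the Slc43 family, 0.55 higher (adjusted p = 0.000559). Slc43a3 was also 0.62 higher in g in knockout (adjusted p = 0.000843). Slc7a10, a serine and small neutral amino acid carrier known from white adipocytes, was lower in wild-type g, with a difference of -0.81 (SE 0.12, adjusted p = 5.56e-05). Pepd was higher in g by 0.94 in wild type (adjusted p = 7.9e-07) and by 0.51 in knockout (adjusted p = 0.0013). In knockout 5 transporters, 2 ATF4 genes, 2 proline list genes and 2 one-carbon list genes were called, where 4.13% of all genes were. With the macrophage covariate, whose values did not overlap between the depots, 2 of all genes were called between wild-type depots. The wild-type difference was then 0.63 for Slc43a3, 0.61 for Pepd, 0.41 for Slc43a2 and -0.44 for Slc7a10.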

How the data were processed

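The deposited table holds log2 signals per probe that the authors normalised with RMA and analysed with limma, per the submitters' processing notes. Their versions were not stated there. Of 28846 probes 6640 controls and 2634 probes without a symbol were left out. For each gene the probe with the highest mean was kept, which gave 19505 genes (each of the 8 measured members has 1 probe). Symbols come from the platform annotation, and all of them matched RefSeq by Entrez identifier. In R 4.3.3 with limma 3.58.1 a mean was fitted for each of 4 groups (16 residual degrees of freedom, no covariate, no filter), and 5 comparisons were drawn, two-sided, with Benjamini-Hochberg adjustment over all genes. Called, rose and fell mean an adjusted p under 0.05. SE is moderated and SD is over 5 arrays.

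The members, gene lists and tests were chosen with earlier results of these data known. Named were all members, per list and comparison up to 4 called genes with the smallest p, of which some are printed, and the 5 genes most like each leading gene, passing over Gm, Rik, Olfr and Vmn symbols. The sc and g arrays share title numbers. Residuals of same-numbered arrays correlated between -0.46 and 0.14 (median 0.01), and 3 of 10 matched their own number best, so no pairing was used. The fit was tested on simulated data for the wild-type depot comparison only, with genes that varied independently of one another. The number of arrays limits precision.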

Additional observations from a re-analysis of the deposited data

Results flagged for a closer look

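In groups of 5 arrays, 4 of the 32 combinations of gene and group had 1 array standing apart by Dixon's test, which flags about 1 in 20 by chance. Phgdh was 9.45 on g318 KO, with the nearest knockout g array at 9.67. Psat1 was 8.77 on sc286WT, with the nearest wild-type sc array at 9.13, and Asns was 8.34 on the same array, with the nearest at 8.70. That array also had the highest skeletal muscle mean, 10.69. Aldh4a1 was 5.53 on g307 WT, with the nearest wild-type g array at 6.15. The part of other tissues' RNA in these values was not tested.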

How the results depend on the processing

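The knockout differences of Phgdh, Prodh and Slc43a1 were above 0 in all 24 alternatives in sc (0.50 to 0.69, 0.76 to 1.12 and 0.83 to 1.13) and all 23 in g (0.85 to 1.32, 0.19 to 0.82 and 0.39 to 0.70). These genes were chosen for being higher on the same knockout arrays, so their sign here is a description and no support. Leaving out 1 array, the genes called numbered 60 to 181 for the knockout in sc (132 with all arrays), 1425 to 2305 in g (2200), 4 to 41 for the difference between depots (15), 2663 to 3770 for g against sc in wild type (3468) and 530 to 829 in knockout (806). Members called between depots were then 1 to 2 in wild type (2) and 0 to 1 in knockout (1). Counts that moved by over 1.5 times came without sc287WT (60), sc300KO (71), sc308WT (73), sc309WT (79), sc317KO (82) or sc320KO (77) for sc, without g307 WT (1425) for g, without sc320KO (530) or g306 KO (537) for the knockout depots, and without sc286WT (41), sc307WT (4) or g308 WT (24) for the difference. With array weights 233 genes were called in sc, 30 for the difference and 0 members between knockout depots. With an intensity trend 25 were called for the difference. With the title number as a replicate block 32 were, and that changed no call of a member or of a named list gene. With only the arrays of the comparison 311 genes and 0 members were called between knockout depots. With the hepatocyte covariate 85 genes were called in sc and 1079 in g. With 3 tissue covariates the counts were 31 in sc, 1 for the difference and 1616 between wild-type depots, with 0 members in wild type and 2 in knockout. With the macrophage covariate they were 37 in sc, 1 in g, 0 for the difference (1388 at an unadjusted p under 0.05), 2 between wild-type and 190 between knockout depots, with 0 members in either, and Asns (0.014) and Gldc (0.0741) between wild-type depots and Sardh (-0.0231) in g turned their sign. Without hepatocyte-high arrays 43 genes were called in g, 1 for the difference and 118 between knockout depots, with 1 member in wild type and 0 in knockout, and 1 knockout g array is then assumed to vary like the other groups. Without lymphocyte-high arrays, chosen after seeing the data, 3 were called for the difference and 0 members between knockout depots. The macrophage means did not overlap between the depots of either genotype, nor between the genotypes in g. That covariate therefore cannot be told apart from these comparisons. Why these values moved was not tested. Prodh was called lower in knockout g than in knockout sc with the hepatocyte covariate (-0.53) and with 3 tissue covariates (-0.54), and Aldh4a1 in wild-type g than in wild-type sc with the hepatocyte covariate (-0.48). Signals of Shmt2 and Aldh4a1, and of Prodh and Slc43a1 on wild-type arrays, near the negative controls limit what their probes can show.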
